A study of Mus musculus with 8 samples.

Results

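Keratins are the intermediate filament proteins of epithelial cells, and 46 of the 20215 genes in the table are keratin genes by their symbol, Krt followed by a number. Of these, 17 reached an RPKM (reads scaled to transcript length in kilobases and to the size of the mapped library) of 1 in at least 1 of the 8 libraries, and 29 stayed below it in every library. RNA was sequenced from mouse embryonic stem cells (ESCs) and from embryoid bodies (EBs), aggregates grown from hanging drops whose cells take on many tissue fates. Lines of 2 genotypes were used, wild-type (WT, line E14) and the line that the labels give as Uhrf1 knockout (KO). They were collected undifferentiated, under leukaemia inhibitory factor on gelatin or on feeder-coated plates, and as EBs at weeks 1, 2 and 3. Each of these 8 groups was 1 library, so each genotype stands for a single line, and no spread between cultures could be measured. Uhrf1 binds hemimethylated DNA and brings the maintenance methyltransferase Dnmt1 to it, and the KO asks which genes then differ along the course.

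Type I (acidic) and type II (basic) keratins pair with each other to build a filament, and neither type forms one alone. Simple epithelia, such as the trophectoderm and the gut lining, use Krt8 with Krt18 and Krt19, and these are also the first keratins of the mouse embryo. Stratified epithelia use Krt5 with Krt14 in their basal layer, other pairs in the layers above it, and a large further set of keratins builds the hair follicle and the hair.

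Uhrf1 itself was at an RPKM of 78.8, 43.8, 36.8 and 41.0 in the WT libraries from ESCs to week 3, and at 45.2, 27.1, 34.6 and 31 in the libraries labelled KO. Its RNA was thus lower at each stage but not lost, and at week 2 the KO library held 94.1% of the WT level. A value per gene cannot show whether the deleted part is missing. The summed RPKM of 8 pluripotency markers was 3186 in WT ESCs and 3923 in KO ESCs and lay between 47.8 and 793 in the EBs, with no marker at 0 in any library. Read depth was not given with the values, and an estimate from the steps between low values ran from 12800000 to 177000000 reads per library. Between 55.1 and 60.7% of the low values used lay within 0.15 of a whole number of reads under these estimates. The 95% intervals given below are exact binomial (Clopper-Pearson) intervals on reads inferred from that estimate, so they are approximate and cover counting error only. In EBs, fewer cells of a type and less RNA per cell cannot be told apart.

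All 6 keratins of simple epithelia reached an RPKM of 1, as did 10 of 18 keratins of stratified epithelia, but 0 of 8 keratins of the hair follicle sheaths and 0 of 12 keratins of the hair shaft. This level was reached by 69.1% of all genes in the table, against 37.0% of the keratins. Krt42, a type I keratin that is a pseudogene in humans, also reached it, while Krt222 did not. The nearest genes above the limit were Krt1, with a highest value of 2.24, and Krt80, with 2.43, and the nearest below were Krt79, with 0.952, and Krt75, with 0.713. Of the 29 low genes 17 never reached 0.1. The number of keratins at an RPKM of 1 or more was 7, 7, 11 and 15 in the WT libraries from ESCs to week 3, and 10, 9, 16 and 15 in the KO libraries. Over all genes in the table these numbers were 10766, 11015, 11984 and 12585 in WT and 10881, 11292, 12384 and 12432 in KO. The highest value of 9 of the 17 detected genes was in KO EBs at week 3, and of 2 in WT EBs at week 3. The matching shares of highest values over all genes were not counted.

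**Figure D1:**
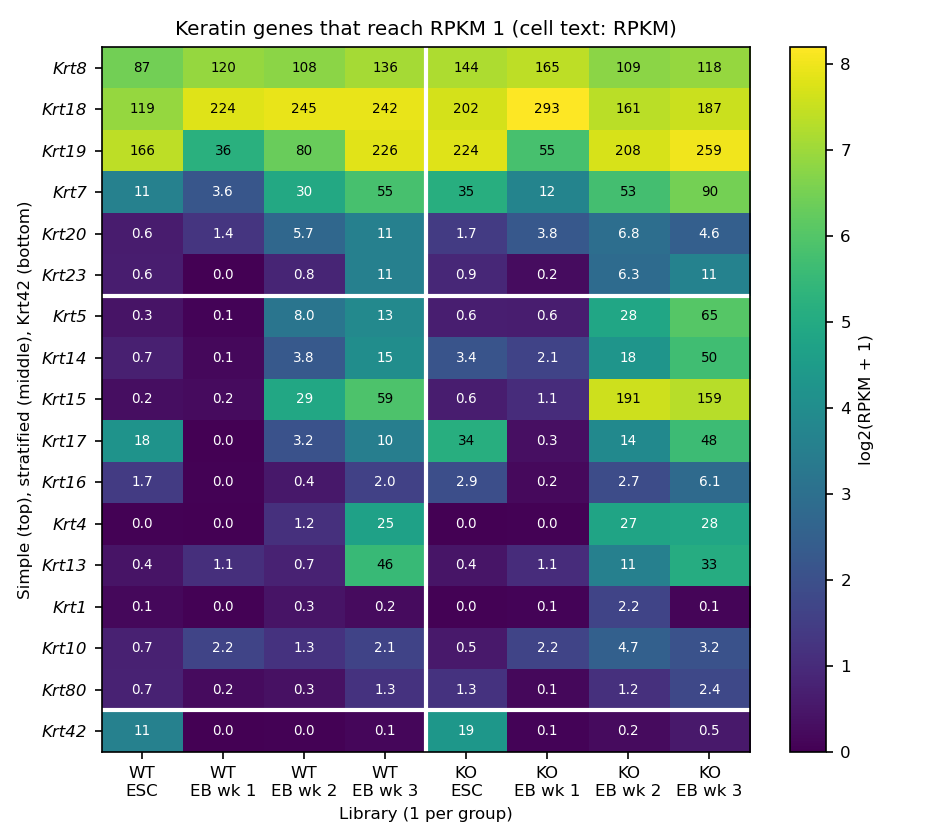
Levels of the 17 keratin genes that reached an RPKM of 1, with genes in rows, the 8 libraries in columns, colour as log2(RPKM + 1) and RPKM printed in each cell. Krt8, Krt18 and Krt19 are bright in every column, while Krt5, Krt14 and Krt15 become bright only in the EBs of weeks 2 and 3.

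The detected genes lay in both keratin clusters of the mouse genome (build mm9, GENCODE M1 gene models). Chromosome 11 held 25 members over 1.04 Mb, of which 10 were detected, and chromosome 15 held 21 members over 0.685 Mb, of which 7 were detected. Of the 17 detected genes 13 had another detected member next to them: Krt13, Krt15 and Krt19 stood side by side, for example, as did Krt14, Krt16, Krt17 and Krt42. The other 4, Krt10, Krt5, Krt1 and Krt4, stood between members that were not detected. This order holds only genes whose symbols fit the rule, so a neighbour outside the rule is not counted. Krt6a, Krt6b, Krt33a and Krt33b were left out for this reason. Of these, Krt6a and Krt6b reached an RPKM of 54.3 and 18.2 in KO EBs at week 3. How many detected genes would stand side by side in an arbitrary order of the members was not worked out. The 7 neighbouring hair shaft genes from Krt39 to Krt36 on chromosome 11, and the 5 from Krt83 to Krt82 on chromosome 15, stayed below an RPKM of 1 in all libraries. Krt8 (chr15:101827142-101834773, minus strand) and Krt18 (chr15:101858647-101862457, plus strand), the partners of the first filament, lie back to back with 23.9 kb between them. Krt18 is the only type I member on chromosome 15.

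**Figure D2:**
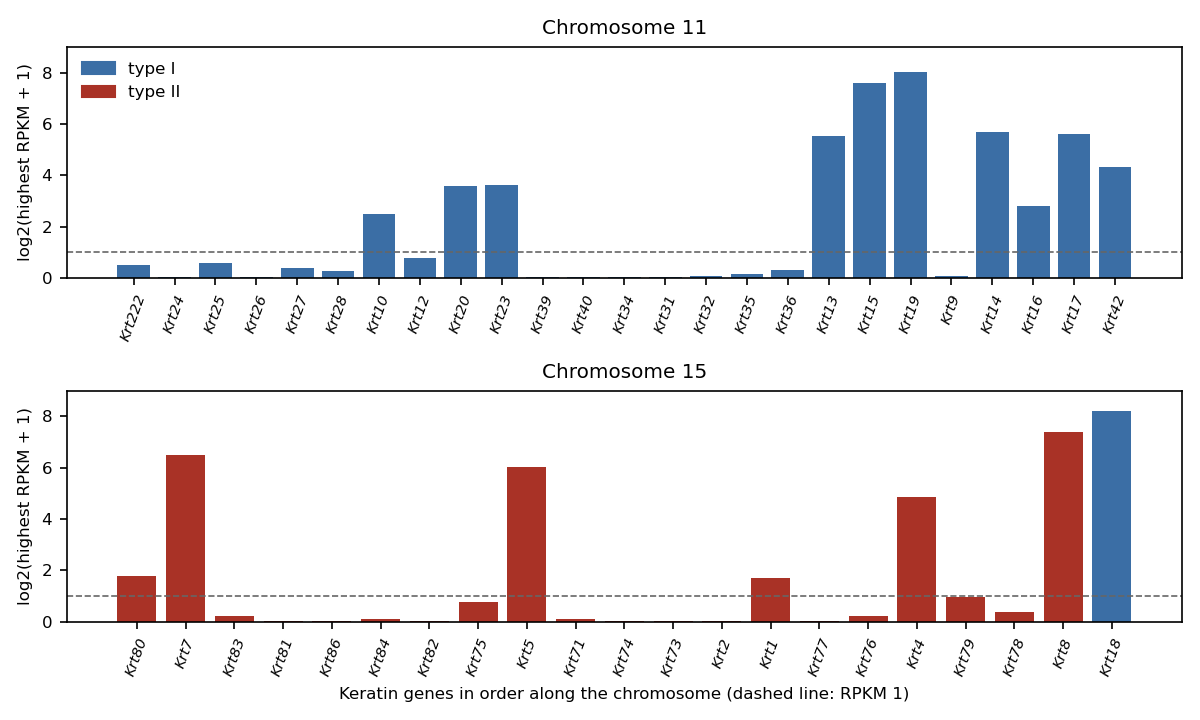
The highest level of each keratin gene over the 8 libraries, as log2(highest RPKM + 1), in the order of the genes along chromosomes 11 and 15; blue bars are type I and red bars type II genes, and the dashed line marks an RPKM of 1. Only genes whose symbols fit the rule are drawn, so Krt6a and Krt6b are left out. In this order 13 of the 17 detected genes stand next to another one, and Krt8 and Krt18 close the row on chromosome 15.

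The stretches of 250 bases before the start sites of Krt8, Krt18, Krt7 and Krt5 are printed. These 4 are the detected chromosome 15 genes for which a promoter was matched, and their levels differed. Krt8 and Krt18 were abundant in all libraries, Krt7 varied with stage and genotype, and Krt5 appeared late. Each run reads 5′ to 3′ on the strand of its gene, with CG dinucleotides, the site at which mammalian DNA is methylated, in capitals. The sequences are from RefSeq on build GRCm38.p6, not on mm9, at chr15:102004343-102004592 (minus strand) for Krt8, chr15:102027966-102028215 (plus strand) for Krt18, chr15:101412153-101412402 (plus strand) for Krt7 and chr15:101712906-101713155 (minus strand) for Krt5.
Krt8: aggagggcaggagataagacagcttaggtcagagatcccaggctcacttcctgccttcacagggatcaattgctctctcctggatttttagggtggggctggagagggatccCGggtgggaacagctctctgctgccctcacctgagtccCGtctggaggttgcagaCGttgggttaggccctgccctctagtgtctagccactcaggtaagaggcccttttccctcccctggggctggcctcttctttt
Krt18: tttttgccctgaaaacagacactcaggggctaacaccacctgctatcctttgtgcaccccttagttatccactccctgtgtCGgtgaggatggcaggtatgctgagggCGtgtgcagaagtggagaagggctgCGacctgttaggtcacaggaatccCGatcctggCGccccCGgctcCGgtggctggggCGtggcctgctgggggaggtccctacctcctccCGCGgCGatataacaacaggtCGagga
Krt7: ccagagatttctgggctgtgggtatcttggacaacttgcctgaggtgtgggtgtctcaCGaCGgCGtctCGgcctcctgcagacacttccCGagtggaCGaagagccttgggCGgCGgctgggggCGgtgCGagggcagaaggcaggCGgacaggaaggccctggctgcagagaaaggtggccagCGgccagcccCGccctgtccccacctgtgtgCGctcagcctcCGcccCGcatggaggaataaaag
Krt5: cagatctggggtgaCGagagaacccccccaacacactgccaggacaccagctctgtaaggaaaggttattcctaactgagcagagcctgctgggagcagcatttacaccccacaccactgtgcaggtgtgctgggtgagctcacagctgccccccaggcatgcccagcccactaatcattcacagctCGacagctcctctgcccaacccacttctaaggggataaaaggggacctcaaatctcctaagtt
The dinucleotide CG reads the same on both strands and cannot overlap itself. It occurred 3 times before Krt8, 12 times before Krt18, 16 times before Krt7 and 2 times before Krt5. At least 1 was held by 92.1% of the 32851 mouse promoters of this length from the same source, the median was 6, 33.5% held as many as Krt18 or more, and 25.4% held as many as Krt7 or more. The partners Krt8 and Krt18 thus differed widely in CG number although both were abundant in all 8 libraries. Promoters were matched for 10 of the 17 detected genes, and the other 7 of these 11 stretches (Krt13 has 2) held between 2 and 5. Methylation was not measured in these libraries.

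Krt18, the type I filament partner of Krt8, was at an RPKM of 119, 224, 245 and 242 in WT from ESCs to week 3 and at 202, 293, 161 and 187 in KO. Krt8 was at 86.8, 119.6, 108 and 136 in WT and at 144, 165, 109 and 118 in KO. Both were among the most abundant genes in all libraries, and they were higher in KO than in WT in ESCs and at week 1 but not higher at week 3. The level of Krt8 divided by that of Krt18 lay between 0.440 and 0.731 in all 8 libraries. Krt19, a type I keratin of ductal and simple epithelia, was at 166, 35.8, 79.6 and 226 in WT and at 224, 54.9, 208 and 259 in KO. Its course was a trough at week 1 in both genotypes, and in KO the level of week 2 was already within 1.5-fold of that of week 3. Krt19 was the most abundant keratin in both ESC libraries and in KO EBs at weeks 2 and 3, and Krt18 in the other 4 libraries.

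Krt7 (chr15:101241474-101260744, plus strand), a type II keratin of ducts, bladder, mesothelium and trophoblast, was at 11.1, 3.56, 29.9 and 55.0 in WT and at 34.6, 12.0, 52.8 and 89.5 in KO. It followed the same trough at week 1, and the KO value was above the WT value at each of the 4 stages. Krt20, a type I keratin of the surface cells of the gut and stomach, was at 0.551, 1.43, 5.73 and 11 in WT and at 1.66, 3.83, 6.79 and 4.6 in KO. The highest Krt20 value was thus in WT at week 3, where KO was lower. Krt23, a type I keratin of simple epithelia, was at 0.576, listed at 0, then 0.799 and 11 in WT, and at 0.882, 0.210, 6.34 and 11.3 in KO. It passed an RPKM of 5 at week 2 in KO and at week 3 in WT.

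Krt15 (chr11:99993072-99997263, minus strand), a type I keratin of basal cells without a fixed type II partner, was at 0.233, 0.178, 29.1 and 59.2 in WT and at 0.571, 1.07, 191 and 159 in KO. It was near or below 1 until week 1 and above 29 from week 2 in both genotypes. Krt5 (chr15:101537501-101543322, minus strand), the basal type II keratin, was at 0.339, 0.0680, 8.03 and 13.4 in WT and at 0.627, 0.562, 27.9 and 64.6 in KO. Krt14 (chr11:100064476-100068862, minus strand), its type I partner, was at 0.661, 0.119, 3.84 and 15.1 in WT and at 3.36, 2.12, 18.3 and 50.3 in KO. Both partners were low until week 1 and highest at week 3, and Krt14 alone was above 1 in KO ESCs. The ratio of Krt5 to Krt14 was between 0.187 and 0.570 in ESCs and at week 1 and between 0.887 and 2.09 later.

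Krt17 (chr11:100117531-100122343, minus strand), a type I keratin of skin appendages, embryonic periderm and wounded epidermis, was at 17.5, listed at 0, then 3.18 and 10.4 in WT, and at 33.9, 0.269, 13.7 and 47.8 in KO. Krt16, a type I keratin of wounded epidermis, was at 1.68, 0.0284, 0.434 and 1.97 in WT and at 2.93, 0.155, 2.74 and 6.07 in KO. Both genes were present in ESCs, almost absent at week 1 and present again later. Their type II partners Krt6a and Krt6b, whose symbols fall outside the rule, lacked the ESC level: Krt6a was at 0.0093 (WT) and 0.0731 (KO) in ESCs and at 20.0 and 54.3 at week 3. Krt42, which lies next to Krt17, was at 11.2 in WT ESCs and 19.2 in KO ESCs and at 0.475 or less in all 6 EB libraries. It was the only detected keratin whose highest value was in ESCs.

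Krt4, the type II keratin of the layers above the basal one in lining epithelia such as the oesophagus, was at 0.0436, 0.0100, 1.21 and 24.8 in WT and at 0.00790, 0.0364, 26.6 and 28.0 in KO. Krt13, its type I partner, was at 0.356, 1.15, 0.734 and 45.5 in WT and at 0.368, 1.08, 10.9 and 33.1 in KO. This pair showed the clearest difference in time, since both genes were above 10 at week 2 in KO but only at week 3 in WT, and at week 3 the genotypes were within 1.5-fold of each other. The epidermal pair stayed low: Krt1, of the layers above the basal one, had a highest value of 2.24 in KO at week 2 and was below 1 in the other 7 libraries. Its partner Krt10 lay between 0.466 and 4.70, and Krt80, a type II keratin of many epithelia, between 0.134 and 2.43.

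**Figure D3:**
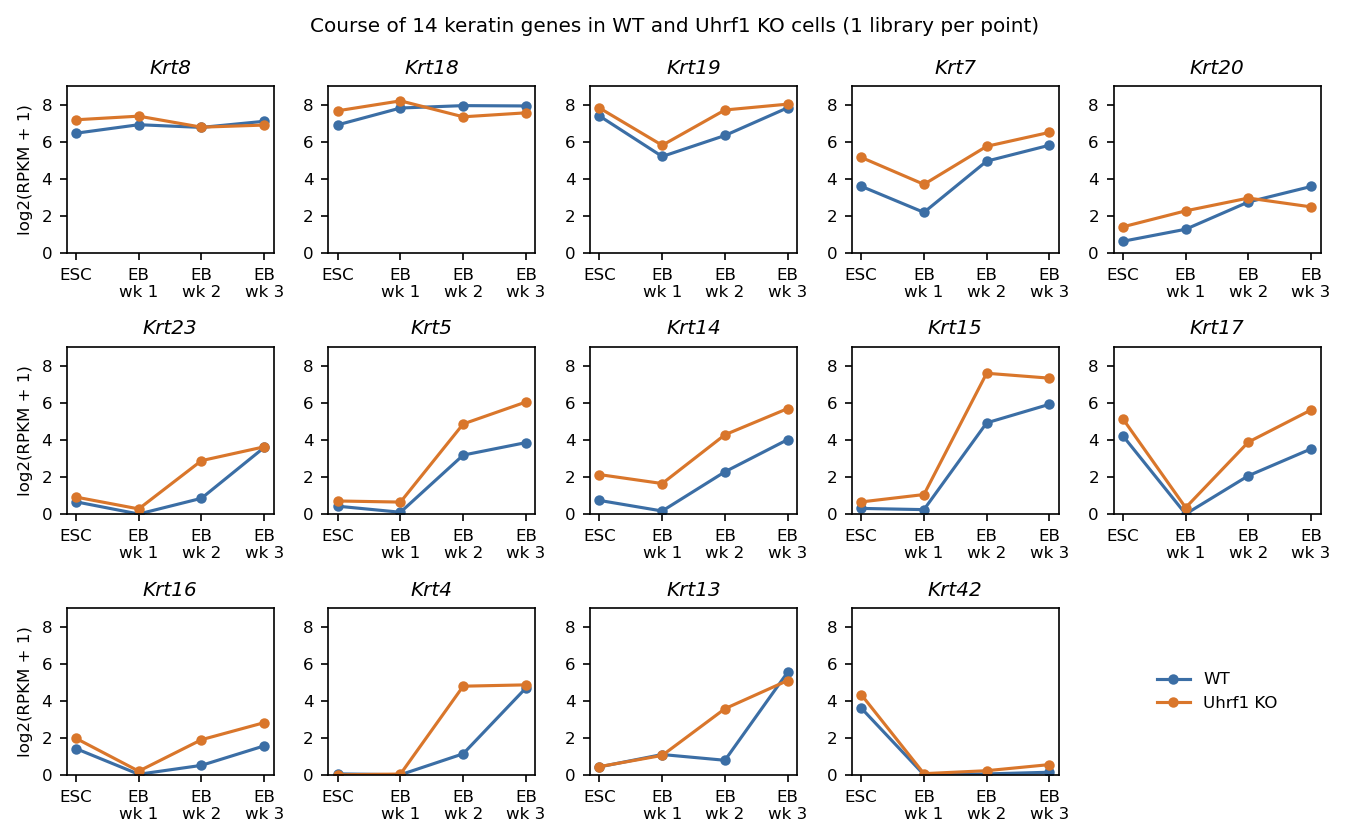
Course of the 14 keratin genes that reached an RPKM of 5, as log2(RPKM + 1) against stage; blue points are WT and orange points Uhrf1 KO, each 1 library. Krt4, Krt13 and Krt23 meet at week 3 after a gap at week 2, whereas the KO line of Krt5, Krt14 and Krt17 lies above the WT line at both weeks.

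Summed over all 46 members, keratin RNA came to an RPKM of 420.3, 389, 518 and 857 in WT and to 672, 537, 845 and 1067 in KO. Krt8, Krt18 and Krt19 made up 88.4, 97.6, 83.4 and 70.5% of it in WT and 84.9, 95.4, 56.5 and 52.9% in KO. Keratins of stratified epithelia made up 5.74, 1.08, 9.38 and 20.4% in WT and 35.4 and 37.1% in KO at weeks 2 and 3, after 6.62 and 1.49% in KO ESCs and at week 1. The stratified share was thus higher in KO than in WT at each stage, most clearly at weeks 2 and 3. Type I RNA exceeded type II RNA by a factor of 2.02 to 3.19 in all 8 libraries.

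**Figure D4:**
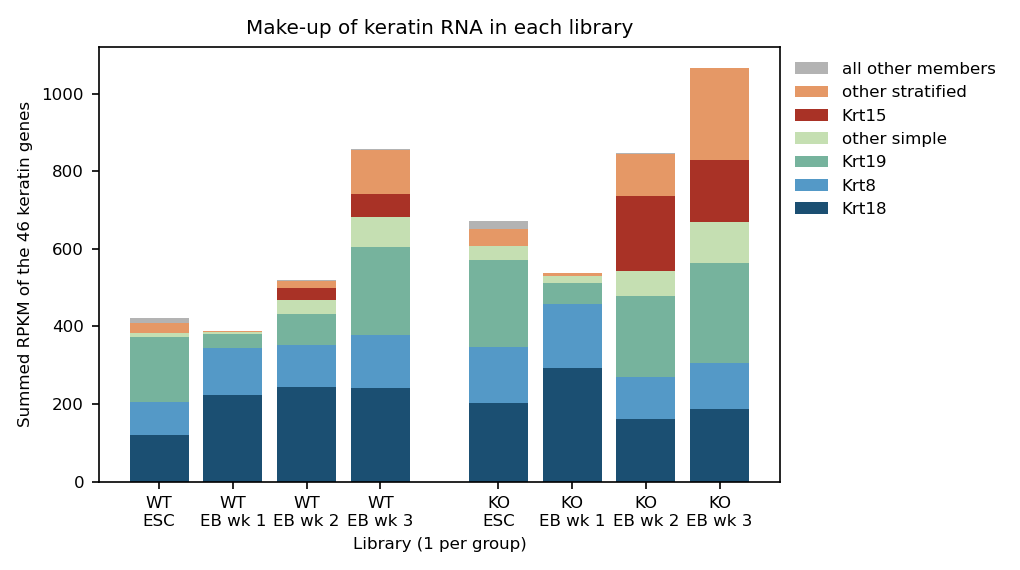
Summed RPKM of the 46 keratin genes in each of the 8 libraries, stacked by gene or group. The blue and green blocks of the simple keratins fill most of each bar, and the red and orange blocks of Krt15 and the other stratified keratins reach 35.4% and 37.1% of the sum in KO at weeks 2 and 3.

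The course from ESCs to EBs was tested with limma, with terms for stage and genotype in a model with 3 residual degrees of freedom over 13249 genes, of which 16 were keratins. The filter of an RPKM of 1 in at least 2 libraries left out the remaining members, Krt1 among them. The ESC side was 1 WT and 1 KO library. The error of the model comes from genotype differences that vary with stage, not from replicate cultures. At a Benjamini-Hochberg adjusted p under 0.05, 7 of 16 keratins rose and 3 fell in EBs, where 43.9% of all genes rose and 28.7% fell. The rising share of keratins was thus close to that of all genes. The rise was 4.03 ± 0.43 on the log2 scale for Krt15 (standard error, limma adjusted p = 0.000603), 2.55 ± 0.40 for Krt5 (limma adjusted p = 0.00228) and 1.58 ± 0.15 for Krt14 (limma adjusted p = 0.00038), all on RPKM + 1. Krt4 (2.55), Krt13 (2.41), Krt20 (1.53) and Krt10 (1.15) rose too. Krt42 fell by 3.79 (limma adjusted p = 9.98e-05), Krt17 fell by 2.10 and Krt19 fell by 0.78. Krt8, Krt18 and Krt7 were not called, with log2 differences of 0.16, 0.51 and 0.44. The median difference over all genes was 0.25. Without week 1 the difference of Krt19 was -0.13 and was not called, while Krt7 (1.38) and Krt23 (1.95) were called. Without week 3, Krt4 (1.46) and Krt13 (1.18) were not called, and without week 2 Krt20 (1.38) was not, whereas Krt23 (1.09) was. Krt16, at -0.52 and not called, was called as falling without week 3 (-1.03).

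The genotypes were then compared at each stage, where a gene was counted as higher or lower at 1.5-fold on RPKM + 1 among genes that reached an RPKM of 1 in the WT or the KO library. In ESCs 7 keratins were higher in KO and 0 lower among the 10 that passed this filter, against 3.84% of all genes higher and 2.29% lower. At week 1 the counts were 5 higher and 0 lower of 9, against 8.37% and 6.22%. At week 2 they were 13 higher and 1 lower of 16, against 10% and 6.42%, and at week 3 6 higher and 1 lower of 15, against 7.65% and 7.69%. More keratins were thus higher than lower in KO at each stage, and the number higher was largest at week 2. A gene that entered through its KO value alone had to be higher there: these were 3 genes in ESCs, 2 at week 1, 5 at week 2 and 0 at week 3. Among keratins at 1 or more in both libraries the counts were 5 of 7, 3 of 7, 8 of 11 and 6 of 15 higher. With that filter 344 of 10594, 653 of 10738, 793 of 11679 and 731 of 11967 genes of the whole set were higher. Over all 46 members, whatever their level, the KO value was above the WT value for 23, 24, 32 and 22 genes and below it for 20, 7, 5 and 12, and the rest were equal. The matching share over all genes was not counted. With 1 library per group these are differences between libraries, with no test. With all libraries rescaled to the same RPKM total, the all-gene counts of higher and lower moved from 424 and 253 to 344 and 367 in ESCs, from 1270 and 814 to 1009 and 1084 at week 2, and from 998 and 1003 to 786 and 1373 at week 3, while the keratin counts were 7 and 0, 13 and 1, and 5 and 1. Krt7 was the gene no longer counted at week 3, with a log2 ratio of 0.56.

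**Figure D5:**
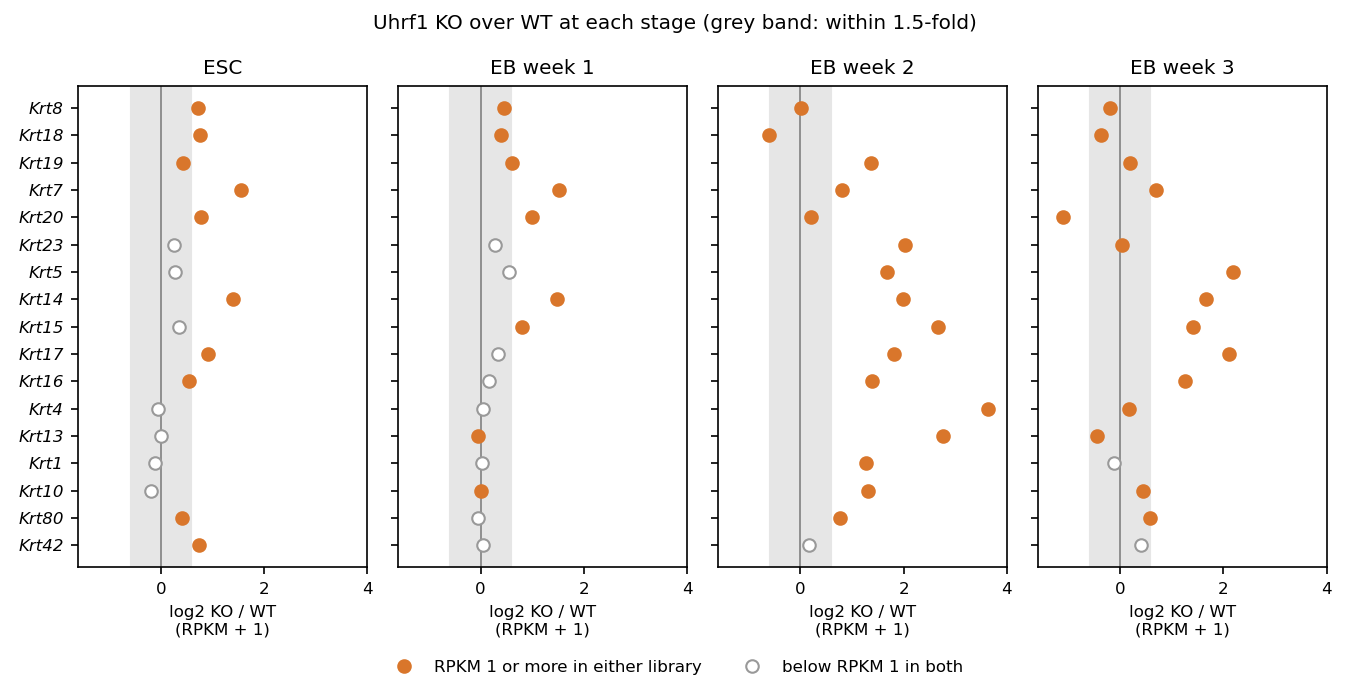
Difference between Uhrf1 KO and WT as log2 of the ratio of RPKM + 1, for the 17 detected keratins at each stage; filled points are genes that reach an RPKM of 1 in WT or KO, open points reach it in neither, and the grey band marks less than 1.5-fold. At week 2, 13 filled points lie right of the band and that of Krt18 lies left of it.

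Krt7 and Krt14 were the keratins counted as higher in KO at all 4 stages. Krt7 was 3.11-fold higher in ESCs (interval 3.03 to 3.19), 3.38-fold at week 1 (3.03 to 3.77), 1.76-fold at week 2 (1.69 to 1.84) and 1.63-fold at week 3 (1.58 to 1.68), as ratios of RPKM without the added 1. Its excess was thus largest at the early stages. Krt14 was 5.08-fold higher in ESCs (4.34 to 5.95), 17.8-fold at week 1 (8.84 to 42.5), 4.76-fold at week 2 (4.05 to 5.6) and 3.33-fold at week 3 (3.07 to 3.61). The ESC and week 1 ratios of Krt14 rest on WT values below an RPKM of 1. Krt15 was 5.98-fold higher at week 1 (2.90 to 12.4), 6.54-fold at week 2 (6.19 to 6.92) and 2.69-fold at week 3 (2.58 to 2.81). Its week 1 ratio also rests on a WT value below 1 (0.178). Krt5 was 3.48-fold higher at week 2 (3.14 to 3.86) and 4.82-fold at week 3 (4.48 to 5.18). The basal keratins were thus higher in KO at both late stages.

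Krt17 was 1.94-fold higher in KO ESCs (1.87 to 2.01), 4.31-fold at week 2 (3.58 to 5.23) and 4.61-fold at week 3 (4.18 to 5.09). Krt16 was 6.31-fold higher at week 2 (3.97 to 10.8) and 3.09-fold at week 3 (2.44 to 3.96). The largest week 2 ratios belonged to Krt4 and Krt13, of the upper layers of lining epithelia, and to the simple keratin Krt23, and none of them passed 1.5-fold as higher or lower at week 3. Krt4 was 22.0-fold higher at week 2 (17.6 to 28.0) and 1.13-fold at week 3, Krt13 was 14.8-fold higher at week 2 (10.5 to 21.0) and 0.729-fold at week 3, and Krt23 was 7.93-fold higher at week 2 (5.58 to 11.4) and 1.02-fold at week 3. Krt1 (6.62-fold), Krt10 (3.63-fold) and Krt80 (4.14-fold) were also higher at week 2. In WT at week 2, Krt13 (0.734), Krt23 (0.799), Krt16 (0.434), Krt1 (0.338) and Krt80 (0.286) were below an RPKM of 1. They entered through their KO value alone, so their week 2 ratios rest on low WT values.

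The abundant simple keratins differed less. Krt8 was 1.65-fold (1.63 to 1.68) and Krt18 1.70-fold (1.68 to 1.73) higher in KO ESCs, and at week 2 Krt18 was at 0.657 of its WT level (0.634 to 0.680) while Krt8 was at 1.02. Krt19 was 1.53-fold higher at week 1 (1.43 to 1.64) and 2.61-fold at week 2 (2.51 to 2.72). Krt20 was 3.01-fold higher in ESCs (2.53 to 3.57) and 2.67-fold at week 1 (2.02 to 3.51), and at week 3 it was at 0.418 of its WT level (0.350 to 0.496). The ESC ratio of Krt20 rests on a WT value below an RPKM of 1 (0.551). Krt42 was 1.71-fold higher in KO ESCs (1.64 to 1.79). The direction for Krt18 and Krt20 therefore differed between stages.

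Over the 4 stages together, limma with stage as a factor called 0 of 13249 genes for genotype, and 0 of the 16 keratins tested, at an adjusted p under 0.05. At an unadjusted p under 0.05 there were 1984 genes (15%; 9% higher and 5.97% lower in KO), among them 8 keratins, all higher. The estimate was above 0 for all 16 keratins, with a median of 0.65 on the log2 scale against 0.04 over all genes. The share of all genes with an estimate above 0 was not counted. The keratin estimate fell below 0 for Krt18 at equal RPKM totals (-0.02), without ESCs (-0.20) and without week 1 (-0.07). It also did so for Krt20 without week 1 (-0.04) and for Krt13 without week 2 (-0.16). Krt14 had the lowest unadjusted p of all genes, with a difference of 1.63 ± 0.13 (standard error), and its limma adjusted p was 0.117, between 0.0757 and 0.466 under the alternatives. Krt7 differed by 1.14 ± 0.18 with the same limma adjusted p of 0.117 (0.0935 to 0.466). The other 6 were Krt15 (1.31), Krt17 (1.29), Krt5 (1.17), Krt16 (0.84), Krt19 (0.65) and Krt80 (0.43). Krt8 (0.25) and Krt18 (0.04) had the smallest estimates of the abundant keratins. This model takes the stages as repeats of the genotype difference, so a difference that varies with stage adds to its error.

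Genes that act with keratins were counted in the same way. Beside these and all later list and marker counts, 3.84% of all genes were higher and 2.29% lower in ESCs. The shares were 8.37% and 6.22% at week 1, 10% and 6.42% at week 2, and 7.65% and 7.69% at week 3. In the list of 17 desmosome proteins and linkers that anchor keratin filaments, 0 were higher and 2 lower of 12 in ESCs, 1 higher and 0 lower of 9 at week 1, 2 higher and 1 lower of 14 at week 2, and 3 higher and 0 lower of 14 at week 3. Desmoplakin (Dsp), which ties filaments to the desmosome, had an RPKM of 24.2 in WT EBs and 42.2 in KO EBs at week 1 but of 26.5 and 15.6 at week 2, and Perp, a desmosome protein, at 32.6 and 58.7 at week 3. In the list of 20 adhesion and junction genes 7 were higher and 1 lower in ESCs, and 2 were higher and 4 lower at week 2. E-cadherin (Cdh1) had an RPKM of 175 in WT ESCs against 100.3 in KO ESCs, and the claudin Cldn6 was at 146 and 56.8 at week 2. Trp63, the transcription factor of the basal layer, had values of 7.46 (WT) and 5.36 (KO) at week 2 and of 1.52 and 5.5 at week 3. Trp63 was thus higher in KO at week 3, as the basal keratins were, and within 1.5-fold at week 2.

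In the list of 16 epithelial transcription and splicing factors in the table, 4 were higher and 0 lower of 13 in ESCs, 3 and 0 of 12 at week 1, 4 and 1 of 16 at week 2, and 3 and 0 of 15 at week 3. Elf3, an epithelial Ets factor, was at 25.3 in WT and 41.7 in KO ESCs and at 7.77 and 15.5 at week 2. Among 11 genes of the epidermal barrier 3 were higher and 1 lower of 5 at week 2, and 0 higher and 4 lower of 5 at week 3. Sprr1a, a precursor of the cornified envelope, had values of 7.96 (WT) and 25.5 (KO) at week 2 and of 42.7 and 25.1 at week 3. Barrier genes therefore stood lower in KO at week 3, where the basal keratins stood higher. Of 16 other intermediate filament and lamin genes 1 was higher and 1 lower of 13 in ESCs, 5 higher and 1 lower of 9 at week 1, 5 higher and 0 lower of 11 at week 2 and 1 higher and 3 lower of 13 at week 3, and vimentin (Vim), the filament of mesenchyme, had values of 470.0 (WT) and 299 (KO) at week 1 and of 415 and 383 at week 2.

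Markers of several cell types that carry keratins also differed between KO and WT, and their part in the keratin values was not tested. The lists are short, and their counts stand beside the all-gene shares given above for each stage. In ESCs the 11 trophoblast markers summed to an RPKM of 7.90 in WT, with Tpbpa at 0, and 21.3 in KO, with 5 higher and 0 lower of 6. At week 2 the same markers summed to 36.7 in WT and 16.9 in KO, with 1 higher and 6 lower of 9 and none at 0. The 9 gut and stomach markers other than Krt20 summed to 42.6 in WT, with Tff2 at 0, and 392 in KO at week 2, with 6 higher and 1 lower of 7, and to 359 and 113 at week 3, with 0 higher and 6 lower of 8 and none at 0. Krt20 was within 1.5-fold at week 2 (5.73 and 6.79) and lower in KO at week 3, and the basal keratins were higher in KO at both weeks. The 5 mesothelium markers were 5 higher of 5 at week 2, with sums of 12.2 and 64.2, and 2 higher and 1 lower of 5 at week 3, with sums of 33.4 and 73.4. The 7 airway and urothelium markers were 7 higher of 7 at week 2, with sums of 7.40 and 32.5, and 3 higher and 0 lower of 6 at week 3, with sums of 13.7 and 300.0. Scgb1a1, the club cell secretory protein, was listed at 0 in WT at both weeks and was at 226 in KO at week 3. The 3 surface ectoderm markers that are not keratins summed to 52.1 and 53.0 at week 2, with 0 higher and 0 lower, and to 38.2 and 75.1 at week 3, with 3 higher of 3. The 13 parietal and visceral endoderm markers, none at 0 in any library, were 4 higher and 0 lower of 7 in ESCs, with sums of 266 and 392. They were 1 higher and 3 lower of 13 at week 1 (1109 and 1737), 0 higher and 5 lower of 13 at week 2 (6101 and 2211) and 2 higher and 2 lower of 12 at week 3 (1666 and 1200.2). The higher KO sum at week 1 rested on Afp alone, at 147 in WT and 894 in KO. The 3 lower genes there were Ttr (366 and 173), Sox7 (6.29 and 2.89) and Thbd (6.4 and 2.44). Afp was at 4602 and 1096 at week 2 and at 824 and 36 at week 3. For Krt8 and Krt18, which these endoderm cells carry, the KO value over the WT value was 1.65 and 1.70 in ESCs and 1.38 and 1.31 at week 1. It was 1.02 and 0.657 at week 2 and 0.867 and 0.774 at week 3, and a link to these markers was not tested. The 8 pluripotency markers were 0 higher and 4 lower of 7 at week 1 (73.6 and 47.8) and 7 higher and 0 lower of 8 at week 2 (136 and 403). The 8 fibroblast markers, which feeder cells would bring, summed to 17.9 in WT, with Lum at 0, and 12.6 in KO ESCs, and to 87.0 and 185 at week 1, with 4 higher and 0 lower of 7.

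Some keratin reads could not be assigned to 1 gene with certainty. Of all windows of 31 bases in the transcript, 66.5% for Krt8, 46.6% for Krt16, 29.0% for Krt14, 15.3% for Krt17, 12.4% for Krt18 and 11.5% for Krt5 occurred again elsewhere in the mm9 genome, and for the other detected members it was 6.27% or less. Krt14 shared 18.2% of its windows with Krt16, and Krt5 shared 9.49% with Krt6a. The levels of these 6 genes are therefore uncertain by what such reads add or remove. The same holds for Krt6a and Krt6b, outside the rule, with 48.3% and 49.6% of windows elsewhere in the genome. Krt6a shared 49.8% of its windows with Krt6b. TopHat was run by the authors with default settings and Cufflinks with the RefSeq annotation, and the sources used here describe no other treatment of such reads. Keratin-associated proteins, which fill the hair shaft between its filaments, were almost absent: of 43 measured, 1 (Krtap17-1) reached an RPKM of 1, with a highest value of 4.47.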

How the data were processed

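The authors deposited log2 values of RPKM + 1, 1 per RefSeq gene, made from poly(A)-selected, fragmented RNA copied with random hexamers. The unit was read from the values, which run from 0 to 14.55 and return to RPKM on a grid of 0.0001. Per the submitters' processing notes, mm9 was used with TopHat 1.1.4, Bowtie 0.12.7, SAMtools 0.1.18 and Cufflinks 1.1.0. RPKM was recovered as 2 to that power minus 1. All 8 columns were used.

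KO was compared with WT at each stage (1.5-fold on RPKM + 1, over genes that reached an RPKM of 1 in either), and the effects of genotype and of EB against ESC came from limma 3.58.1 under R 4.3.3 (mean trend, genes that reached an RPKM of 1 in 2 libraries or more). Tables were handled with pandas 2.3.3 and numpy 2.4.6 in Python 3.11.15, intervals came from scipy 1.17.1, and plots were drawn with matplotlib 3.10.9. Depth was estimated from steps of RPKM times transcript length. The fold counts and the limma model were tested on simulated data. For the fold counts these held counting error only, and for limma the same spread for every gene. They cannot stand in for replicate cultures. Members and gene lists were chosen with earlier results of these data known. Every keratin at an RPKM of 1 is named, those at 5 with all values, and from each other list at most 4 genes at 5 or more. The marker lists without their keratins were added after the values were seen. The alternatives were a pseudocount of 0.1, other filters, 3 scalings, a 2-fold threshold, limma without a trend and leaving out each stage.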

Additional observations from a re-analysis of the deposited data

Results flagged for a closer look

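The difference between KO and WT pointed in opposite directions at different stages for a pair of keratins. Krt20 was higher in KO in ESCs (log2 ratio of RPKM + 1 of 0.78) and at week 1 (0.99) and lower at week 3 (-1.10). Krt18 was higher in KO in ESCs (0.76) and lower at week 2 (-0.60). With 1 library per group the difference between stages was not tested for either gene.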

How the results depend on the processing

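No paired analysis was possible because the labels give no replicate numbers and each group is 1 library; the limma model with stage as a factor already compares the genotypes within each stage. Counts of keratins past the fold threshold kept their direction under all alternatives, apart from 1 lower keratin that appeared in ESCs without a filter. At a 2-fold threshold 2 of 10 keratins were counted in ESCs in place of 7, against 1.35% of all genes. At week 1 that threshold counted 2 of 9 in place of 5, against 5.39% of all genes. With a filter at RPKM 5 in place of 1, 2 of 4 were counted at week 1, against 12.4% of all genes. With an RPKM of 1 or more in both libraries, an alternative chosen after seeing the data, the counts were 3 at week 1 and 9 in place of 14 at week 2. These were 3 of 7 and 9 of 11 keratins, against 11.4% and 12.3% of all genes. When each stage was left out in turn, 0 to 0 keratins were called for genotype, and 9 to 11, in place of 10, for EB against ESC. Without a filter on low values the latter count was 12, with 6 higher and 6 lower in place of 7 and 3. Of 627 values of single keratins under alternatives, 17 fell below the threshold, 6 passed it and 12 changed sign, none of which was past a threshold before or after. Of these 12, 8 came from limma. For genotype they were Krt18 (0.04), at -0.02 with equal RPKM totals and between -0.20 (without ESCs) and 0.26 when a stage was left out, Krt20 (0.22), between -0.04 (without week 1) and 0.66, and Krt13 (0.57), between -0.16 (without week 2) and 0.91. For EB against ESC they were Krt16 (-0.52), between -1.03 and 0.01 (without week 1), Krt80 (-0.19), between -0.53 and 0.12 (without week 1), and Krt7 (0.44), between -0.23 (without week 3) and 1.38. Krt18 was also below 0 for genotype without week 1 (-0.07). The 4 ratios were Krt8 at week 2 (0.02 to -0.01 and -0.09) and Krt23 at week 3 (0.03 to -0.01 and -0.10), at equal upper quartiles and at equal RPKM totals. Of the 17 that fell below, 11 came from the 2-fold threshold, and Krt7 at week 3 (0.56) fell below 1.5-fold when libraries were rescaled to equal RPKM totals. That rescaling moved the median log2 ratio of all genes from 0.02 to -0.10 at week 3. Values below an RPKM of 1 and ratios on them are limited by depth, which was lowest in the KO EB libraries.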
